A study of Mus musculus with 4 samples.

Results

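The 10 genes described here encode Zfp445, the imprint-binding factor Zfp57, their corepressors Trim28 and Setdb1, and the enzymes that write, copy and oxidise DNA methylation: Dnmt1, Uhrf1, Dnmt3a, Dnmt3b, Tet1 and Tet2. They were selected on measured values of these data, because Zfp445 was among the genes with the largest fall after depletion of Zfp574 and the other 9 share its pathway. They are 10 of the 12486 genes in the count table, and all 10 passed the filter on low counts. Zfp445 was chosen by its fold change in this comparison, and the other members with results of it known. The values of all 10 members are therefore given as a description, without a printed p-value. Where a member is said to pass the adjusted p or not, this too is a description.

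Imprinted genes are transcribed from 1 parental allele, and the choice is kept by DNA methylation at an imprinting control region on 1 of the alleles. Zfp57 and Zfp445 are zinc finger proteins with a KRAB domain that bind methylated imprinting control regions and, through that domain, recruit Trim28 (also called KAP1), which brings in the histone H3 lysine 9 methyltransferase Setdb1. At replication Uhrf1 recognises hemimethylated DNA and guides Dnmt1, which copies the mark. Dnmt3a and Dnmt3b methylate unmethylated DNA, while Tet1 and Tet2 oxidise 5-methylcytosine. Embryonic stem cells transcribe all of these genes and depend on the KRAB, Trim28 and Setdb1 system to keep imprints and many retroelements silent.

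Nascent transcription was measured by PRO-seq, in which RNA polymerase extends its transcript by a labelled nucleotide in isolated nuclei, so that a read marks an engaged polymerase on its strand. Both conditions used the same diploid mouse embryonic stem cells, derived from the originally haploid HMSc2 line, named AN3-12 in the study's methods, and grown without feeders in serum and LIF. In both, Zfp574 carried an N-terminal auxin-inducible degron (AID), in a parental line with the auxin receptor OsTir1 and ARF16 expressed from an EF1a-driven cassette. The control (2 libraries, 0 h) was untreated and the depletion group (2 libraries) received 500 uM of the auxin IAA for 6 h. The tagged line was grown from individual genotyped clones, and no auxin-treated cells without the tag were analysed here, so effects of auxin itself and of loss of Zfp574 cannot be told apart. The sample titles number the 2 libraries of a condition as replicates, and the study's methods call them biological replicates.

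Column totals were 3298864 and 3616429 in control cells and 6045216 and 5670904 in depleted cells, so that depth also differed between the groups. Levels are given as CPM, counts relative to the size of the library after TMM scaling. Fold changes are log2 values of depletion over control from edgeR, with the standard error (SE). Of 10 embryonic stem cell markers, 8 were in the table, with a summed level of 4105 to 4248 CPM in every library. Of 7 fibroblast markers, only Thy1 was in the table, at 0.504 to 2.18 CPM, and none of 6 markers of the 2-cell-like state was listed. Zfp574, the targeted gene, gave 80 and 130 counts before and 195 and 219 after depletion (log2 fold change 0.25, SE 0.14, adjusted p = 0.406, edgeR quasi-likelihood test, Benjamini-Hochberg). The AID acts on the protein, so that nascent transcription of Zfp574 does not check the depletion. Without control replicate 2 its fold change was 0.57 (edgeR adjusted p = 0.0293).

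In the promoter sequences below, CpG dinucleotides, the sites of methylation in mammals, are in capitals. Each is the 250 bases ahead of a RefSeq transcription start (GRCm38.p6), read 5′ to 3′ on the strand of the gene. They are shown because Zfp445 is the member that fell, Zfp57 its closest partner in function, whose groups overlapped, and Dnmt3b a member with more CpGs whose groups also overlapped.
Zfp445 (chr9:122866007-122866256, minus strand): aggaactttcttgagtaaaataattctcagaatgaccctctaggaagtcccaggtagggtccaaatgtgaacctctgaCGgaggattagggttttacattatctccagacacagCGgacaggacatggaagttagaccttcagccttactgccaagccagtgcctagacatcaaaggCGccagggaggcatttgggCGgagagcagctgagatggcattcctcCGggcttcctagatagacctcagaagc
Zfp57, the most upstream of 3 promoters (chr17:37000913-37001162, plus strand): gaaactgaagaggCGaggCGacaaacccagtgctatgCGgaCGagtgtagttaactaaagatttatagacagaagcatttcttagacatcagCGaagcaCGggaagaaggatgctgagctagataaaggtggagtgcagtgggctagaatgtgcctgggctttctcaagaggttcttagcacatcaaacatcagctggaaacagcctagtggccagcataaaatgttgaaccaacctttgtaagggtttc
Dnmt3b (chr2:153649199-153649448, plus strand): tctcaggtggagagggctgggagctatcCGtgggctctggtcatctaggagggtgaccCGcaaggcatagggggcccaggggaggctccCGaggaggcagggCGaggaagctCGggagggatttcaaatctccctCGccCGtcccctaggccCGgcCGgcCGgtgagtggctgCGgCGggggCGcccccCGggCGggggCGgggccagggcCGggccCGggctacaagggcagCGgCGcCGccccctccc

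Zfp445 had 5 CpGs in this window, Zfp57 had 6 and Dnmt3b had 21, against a median of 16 over 11829 promoters of tested genes. The window of Zfp445 belongs to the start of all 3 curated RefSeq transcripts of the gene. Of 6 predicted transcripts 4 start within 100 bases of it and 2 start 20.8 kb upstream, beside Zkscan7, at a start whose window was not searched. For Zfp445 the ratio of observed to expected CpGs was 0.316, and 12.4% of promoters held fewer CpGs. The CpG-poor window of Zfp445 was shared by Zfp57 and by the most upstream promoter of Dnmt1 (2 CpGs), members whose levels overlapped between conditions. The further promoters of Dnmt1 had 7 and 26 CpGs, and the counts do not separate its promoters. Tet2 had 51 CpGs, and 99.9% of promoters held fewer.

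Zfp445 (ENSMUSG00000047036, chr9:122844529-122866006 of mm10, minus strand in GENCODE M21) was the member that fell. Its counts were 73 and 76 in control cells and 27 and 19 in depleted cells, although the depletion libraries were deeper. As levels these were 21.9 and 20.7 CPM before and 4.54 and 3.38 CPM after depletion, and the groups did not overlap. Mean levels were 21.3 ± 0.846 CPM (SD, n = 2) in the control and 3.96 ± 0.816 CPM (SD, n = 2) after depletion, which is 5.39-fold lower. In bulk counts, less transcription per cell and fewer transcribing cells cannot be told apart. The log2 fold change was -2.41 (SE 0.22, 95% interval -2.86 to -1.97), the 6th smallest among 11853 genes tested. Leaving out each library in turn kept it between -2.64 and -2.23.

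Zfp445 was also the lone member past the call rule of an adjusted p under 0.05 and a fall of at least 2-fold, a rule that 0.321% of all tested genes met. Since its fall chose the list, nothing follows from that count. By the adjusted p alone, 1 member was lower and 1 higher, Tet1, where 1.4% of all genes were lower and 1.11% higher. With the size factors recovered from the deposited mean signal these counts were 2 lower (Zfp445 and Uhrf1) and 0 higher. The share of all genes passing with those factors is not given here, so these counts cannot be set against it. By the libraries themselves, both depletion values lay below both controls for 2 members (Zfp445 and Uhrf1) and above both for 3 (Dnmt3a, Tet1 and Tet2), and the groups overlapped for the other 5. Over all tested genes these shares were 22.9% below and 23.4% above. The median log2 fold change was 0.06 over the 10 members and -0.002 over all genes.

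**Figure D1:**
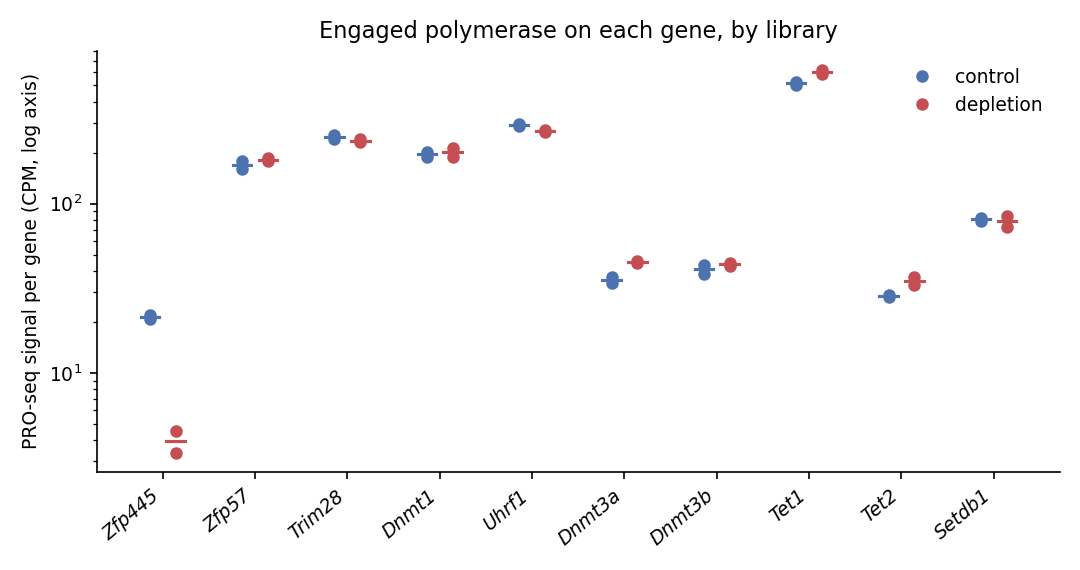
Level of each of the 10 members in each library, in CPM on a log axis, with the 2 control and the 2 depletion libraries as points. Zfp445 is the member whose depletion points lie far below its controls (4.54 and 3.38 against 21.9 and 20.7 CPM), while the points of the other 9 lie close together.

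Zfp57, the KRAB zinc finger protein that binds imprinting control regions together with Zfp445 (chr17:37001163-37010635, plus strand), gave 160 and 179 CPM in control cells and 186 and 178 CPM in depleted cells. The groups overlapped, with a log2 fold change of 0.10 (SE 0.07, 95% interval -0.04 to 0.23). Trim28, the corepressor that both zinc finger proteins recruit (chr7:12999114-13031035, plus strand, over all its annotated transcripts), gave 256 and 241 CPM before and 241 and 231 CPM after depletion. Its log2 fold change was -0.07 (SE 0.06, 95% interval -0.19 to 0.05) and its groups overlapped. Setdb1, which methylates histone H3 lysine 9 at sites bound by Trim28 (chr3:95323525-95357202, minus strand), gave 79.0 and 82.4 CPM in control cells and 72.4 and 84.7 CPM in depleted cells. The depletion libraries of Setdb1 enclosed both controls, with a log2 fold change of -0.04 (SE 0.09, 95% interval -0.23 to 0.14). Relative to the TMM scale, these intervals lie well short of 2-fold in either direction. A change common to all genes was not measured here, since spike-in reads were not used. The recovered size factors may carry the spike-in scaling of the authors, which was not tested.

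Ratios of counts within a library do not depend on how libraries are scaled. Counts of Zfp445 were 8.57% and 8.60% of those of Trim28 in the 2 controls and 1.88% and 1.46% after depletion. Against its partner Zfp57 they were 13.7% and 11.6% before and 2.44% and 1.9% after depletion. The ratio of Zfp445 to its corepressors and to Zfp57 was thus lower in both depletion libraries than in either control.

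Per kilobase of the longest principal transcript, which allows levels to be set against each other between genes, Zfp445 stood 7th of the 10 members in the controls, at 1.25 CPM per kb (1.21 to 1.28). Next below it stood Dnmt3b at 1.07 CPM per kb (1.01 to 1.14), and their ranges over the 2 controls did not overlap. Above it in the controls came Trim28 at 36.1, Zfp57 at 20.9, Uhrf1 at 14.4, Tet1 at 5.44, Dnmt1 at 4.27 and Setdb1 at 2.40 CPM per kb. Last came Tet2 at 0.352 (0.346 to 0.359) and Dnmt3a at 0.331 CPM per kb (0.318 to 0.344), whose ranges nearly met. After depletion Zfp445 was the lowest of the 10, at 0.198 and 0.265 CPM per kb, and the order of the first 6 was kept. The order depends on the length used. With the whole annotated gene span, an alternative added after seeing the data, Zfp445 was at 0.994 CPM per kb (0.966 to 1.02) in the controls, 8th and overlapping Dnmt3b, and Trim28 at 7.79 CPM per kb came after Zfp57 and Uhrf1. Zfp445 was again the lowest after depletion.

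Dnmt1, the maintenance methyltransferase (chr9:20907209-20959888, minus strand), gave 189 and 202 CPM in control cells and 189 and 213 CPM in depleted cells. The groups overlapped, with a log2 fold change of 0.04 (SE 0.07, 95% interval -0.10 to 0.18). Uhrf1, which brings Dnmt1 to newly replicated DNA (chr17:56303321-56323486, plus strand), gave 295 and 287 CPM before and 264 and 271 CPM after depletion. Both depletion libraries were below both controls, by 8.0% in the mean, with a log2 fold change of -0.12 (SE 0.06, 95% interval -0.24 to -0.004). The ratio of Uhrf1 to Dnmt1 counts was 1.56 and 1.42 in control cells and 1.39 and 1.27 in depleted cells, without overlap. With the recovered size factors, which put the median of all genes at -0.105 instead of -0.002, Uhrf1 was at -0.22 and passed the adjusted p.

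Dnmt3a, a de novo methyltransferase (chr12:3806007-3914443, plus strand), gave 37.0 and 34.1 CPM before and 44.4 and 45.7 CPM after depletion, which is 26.7% more in the mean and without overlap. Its log2 fold change was 0.34 (SE 0.11, 95% interval 0.11 to 0.58), the largest positive value among the members, and it did not pass the adjusted p threshold over all genes. Its paralogue Dnmt3b (chr2:153649450-153687730, plus strand) gave 38.5 and 43.7 CPM in control cells and 44.5 and 43.1 CPM in depleted cells. The groups of Dnmt3b overlapped, with a log2 fold change of 0.09 (SE 0.11, 95% interval -0.14 to 0.32). The ratio of Dnmt3a to Dnmt3b counts was 0.961 and 0.781 before and 0.996 and 1.06 after depletion.

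Tet1, the member with the most reads (chr10:62804570-62908996, minus strand), gave 504 and 524 CPM in control cells and 618 and 584 CPM in depleted cells. Both depletion libraries lay above both controls, by 17.0% in the mean, with a log2 fold change of 0.23 (SE 0.05, 95% interval 0.12 to 0.33). Tet2, a dioxygenase of the same family (chr3:133463679-133545139, minus strand), gave 27.9 and 28.9 CPM before and 33.3 and 36.8 CPM after depletion. Its log2 fold change was 0.30 (SE 0.13, 95% interval 0.04 to 0.56), again without overlap between the groups. Counts of Tet1 were 2.60 to 2.67 times those of Dnmt1 in the controls and 3.27 and 2.74 times after depletion. The adjusted p of Tet1 no longer passed with the recovered size factors (log2 fold change 0.12), with DESeq2 (0.23), or without depletion replicate 1 (0.19) or 2 (0.27).

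**Figure D2:**
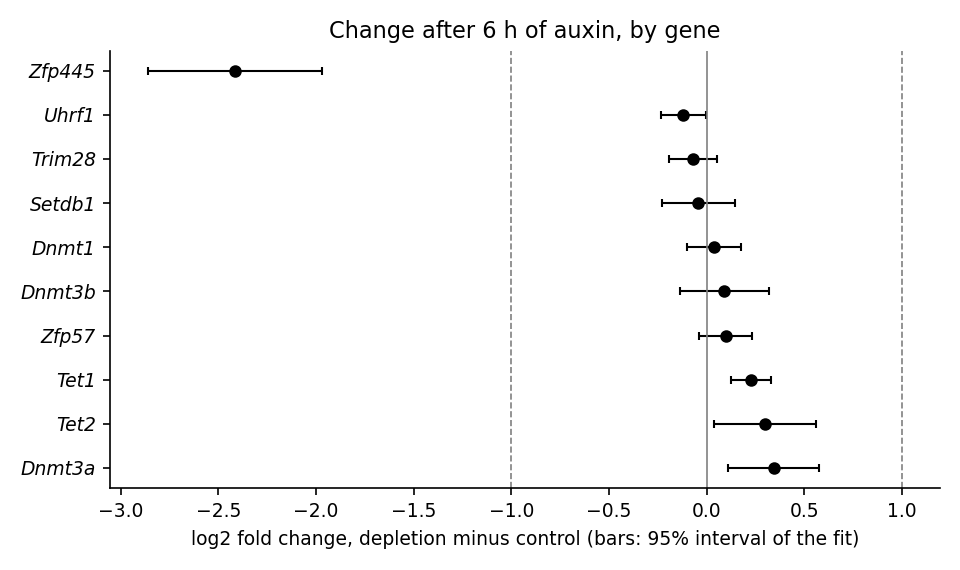
Log2 fold change of each member, depletion over control, with its 95% interval from edgeR. The interval of Zfp445 runs from -2.86 to -1.97, far from those of the other 9 members, which lie between -0.24 and 0.58.

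The 3 members whose depletion libraries lay above both controls, Dnmt3a, Tet1 and Tet2, are also the 3 longest. Their principal transcripts span 107 kb, 94.5 kb and 80.7 kb, in the 2 longest of 10 length classes of equal size. Over 11844 genes the median log2 fold change went from -0.06 in the shortest class to 0.10 in the longest, and Spearman's rho between length and fold change was 0.268, across genes of the same 4 libraries. In the longest class 58.0% of genes had both depletion libraries above both controls, and in the next 38.4%. The fold changes of Dnmt3a (0.34), Tet1 (0.23) and Tet2 (0.30) exceeded the upper quartile of their own class, 0.16 for the longest and 0.13 for the next. The part of gene length in these 3 values was not tested. Zfp445, at 17.1 kb, lies in the 5th class, whose median was -0.03.

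**Figure D3:**
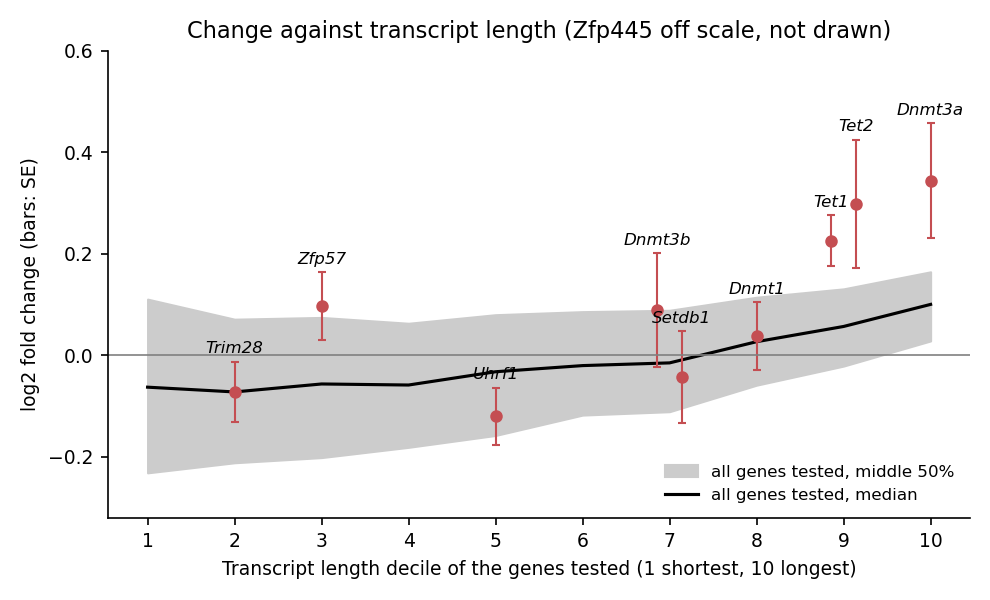
Log2 fold change against length class (10 classes of equal size, 1 the shortest), with the median and the middle of the range of all tested genes as a line and a band, and 9 members as points with their SE. Class medians go from -0.06 to 0.10, Dnmt3a, Tet1 and Tet2 lie above the band of their classes, and Zfp445, at -2.41, is off the scale.

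Zfp445 has other zinc finger genes beside it on chromosome 9. Of 11 other tested genes that start within 250 kb of its start, 1 passed the call rule, Zfp105, which encodes another zinc finger protein. Zfp105 starts 57.1 kb upstream on the opposite strand (chr9:122923072-122931028) and had counts of 66 and 74 in control cells and 34 and 50 in depleted cells. Its mean level was 20.0 CPM before and 7.31 CPM after depletion, with a log2 change of -1.46 (SE 0.20, adjusted p = 3.67e-05, edgeR quasi-likelihood test, Benjamini-Hochberg). Zkscan7, a zinc finger gene with a SCAN domain that starts 19.7 kb upstream, between the 2, gave 19 and 21 counts before and 38 and 14 after depletion. Its depletion libraries lay on either side of its controls, with a log2 fold change of -0.35 (SE 0.34, edgeR adjusted p = 0.684), a value that moved to -1.19 when depletion replicate 1 was left out and to 0.158 when replicate 2 was.

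Gm35549, an annotated locus on the strand of Zfp445 whose model (chr9:122822776-122844035) begins 493 bases past the end of Zfp445, had 8 and 11 counts in control cells and 6 and 2 in depleted cells. Its log2 fold change of -1.93 (SE 0.57, edgeR adjusted p = 0.0660) came close to that of Zfp445 but did not pass. It passed with the recovered size factors (-2.04), limma-voom (-2.03) and the replicate block (-1.94). Reads of Gm35549 and of polymerases past the end of Zfp445 on the same strand cannot be told apart. Tcaim, on the opposite strand downstream, gave 39 and 51 counts before and 83 and 59 after depletion (log2 fold change -0.07, SE 0.20, edgeR adjusted p = 0.919). The other 7 genes of the window ranged from -0.21 to 0.05. Zfp445 and Zfp105 were therefore the called genes of this window, with uncalled genes between and around them.

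**Figure D4:**
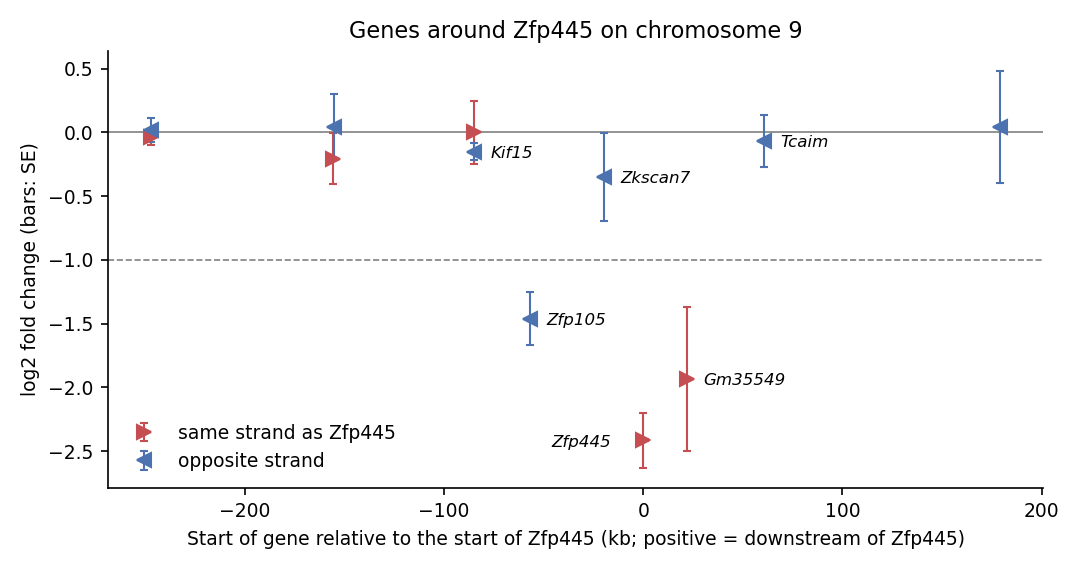
Log2 fold change with its SE for Zfp445 and the 11 other tested genes within 250 kb, against the distance of their start from that of Zfp445 in kb, positive in the direction of transcription of Zfp445. Zfp445 (-2.41), Gm35549 (-1.93) and Zfp105 (-1.46) lie below the dashed line of a 2-fold fall, and the other genes lie between -0.35 and 0.05.

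Over the 4 libraries, the genes whose centred log2 CPM (prior count 2) lay nearest to those of Zfp445 by Euclidean distance were Eef1akmt2 (distance 0.281), Ercc1 (0.383), Thg1l (0.490), Xrn1 (0.534) and Elac1 (0.547). Eef1akmt2, a lysine methyltransferase of an elongation factor, had 67 and 65 counts in control cells and 23 and 21 in depleted cells, almost those of Zfp445, with a log2 fold change of -2.30 (SE 0.22). Xrn1, the cytoplasmic 5′ to 3′ exoribonuclease, had far more reads, 542 and 605 before and 140 and 135 after depletion (log2 fold change -2.79, SE 0.09). Ercc1, a subunit of the repair nuclease with Xpf, was at -2.45 (SE 0.39), Thg1l, a tRNA guanylyltransferase, at -3.47 (SE 0.47) and Elac1, a tRNA-processing nuclease, at -2.22 (SE 0.39).

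Of the 38 genes called lower, Zfp445 included, 33 others had promoters in the set used here, and the remaining called genes were not searched. The promoters of these 33 genes were searched for shared runs of 8 bases on both strands. Windows ran from 250 bases before to 50 after each RefSeq start. These genes were picked by the same comparison, so the counts are a description. The run that led, CCATAGAG (reverse complement CTCTATGG), was in 11 of their 41 promoters (26.8%, 10 of 33 genes) and in 1.08% of all 11829 promoters. The 1 promoter window of Zfp445 that was searched, at its curated start, held neither this run nor any of the other 9 that led the search. These were ACCATAGA (0.744% of all promoters), GGCCGGAA (3.03%), CATAGAGA (0.803%), CGCTCTAG (1.42%), TCTAGCCA (0.938%), CCGCTCTA (140 of 11829), CTCTAGGC (1.55%), GGAAGTGA (4.67%) and GGAGGACC (2.27%), searched with their reverse complements. Several of these runs share bases, so they are not all separate sequences. ACCATAGA and CATAGAGA overlap the leading run. CCGCTCTA, CTCTAGGC and TCTAGCCA overlap CGCTCTAG, and GGAAGTGA begins with the last bases of GGCCGGAA. Among the members CCATAGAG was in 1 of 3 promoters of Dnmt1, starting 196 bases before the start, and in 1 of 3 of Dnmt3a, starting 247 bases before it. Both are shown as 28 bases with the run in capitals.
Dnmt1 (chr9:20953158-20953185, minus strand): agtgcaatgcCCATAGAGgccagaagag
Dnmt3a (chr12:3891494-3891521, plus strand): gtcCCATAGAGctggctggaggggcggg

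Of the other runs, GGCCGGAA was in the promoter of Setdb1 and GCCTAGAG, the reverse complement of CTCTAGGC, in that of Tet2.

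Partners of the members in the same pathways showed no call at 2-fold, where 0.321% of all genes were called, so that lists of this size would hold about none at the share of all genes. Of the corepressor and heterochromatin genes listed, all 22 were in the table and tested. They include the heterochromatin proteins Cbx1, Cbx3 and Cbx5 and the histone H3 lysine 9 methyltransferases Suv39h1, Suv39h2, Ehmt1 and Ehmt2. None of the 22 passed the adjusted p in either direction. Their median log2 fold change was -0.01, with 14 below and 8 above 0. The furthest from 0 was Atf7ip, a cofactor that stabilises Setdb1, at -0.29 (SE 0.12, edgeR adjusted p = 0.206). It had 42.4 and 40.1 CPM in control cells and 31.4 and 36.0 CPM in depleted cells, without overlap.

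Of 27 further genes of DNA methylation and demethylation, 26 were tested and none passed, with a median of -0.04, 15 below and 11 above 0. The furthest from 0 was Zbtb33, which encodes the methyl-CpG binding protein Kaiso, at -0.38 (SE 0.18, edgeR adjusted p = 0.284). With the recovered size factors, 4 genes of this list passed in the lower direction, namely Hells, Kdm2b, Mat2a and Ogt, as did Atf7ip of the list before. Those factors also lowered the median of all genes, and the share of all genes passing with them is not given here. Of 13 other imprint and KRAB zinc finger silencing factors, 9 were tested and none passed (median 0.11, 1 below and 8 above 0). The 1 below 0 was Zfp932, a KRAB zinc finger gene, which went from 5.31 to 3.11 CPM (log2 fold change -0.76, SE 0.32, edgeR adjusted p = 0.231).

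Zfp445 and Zfp57 bind imprinting control regions. Which of the imprinted genes listed here they act on was not tested. Of 52 listed, 40 were in the table and 38 were tested, and H19, Igf2 and Dlk1 were not in the table. In all, 26 lay above 0 and 12 below, with a median of 0.13, and 18 of 38 had both depletion libraries above both controls and 2 below, beside the 23.4% and 22.9% of all genes given above. The adjusted p was passed by 3, all higher and none at 2-fold. At any fold, 1.11% of all tested genes passed as higher and 1.4% as lower. This list also held longer genes than the table at large, with a median of 37.4 kb against 20.7 kb and 42.1% in the 2 longest length classes against 20.0%, and the part of length in its median was not tested. With the recovered size factors, which lowered the median of all genes as given above, 21 lay above 0 and 17 below with a median of 0.03. Meg3 and Kcnq1ot1 then passed as higher, and Cd81 and Tssc4 as lower, without the share of all genes for comparison.

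Meg3, the maternally expressed long non-coding RNA of the Dlk1 domain on chromosome 12, had 166 and 203 counts before and 461 and 475 after depletion. Its level rose from 49.9 and 55.4 CPM to 77.4 and 84.5 CPM, with a log2 fold change of 0.62 (SE 0.10, adjusted p = 0.000163, edgeR quasi-likelihood test, Benjamini-Hochberg). Rian and Mirg, the non-coding RNAs downstream on the same strand, had log2 fold changes of 0.37 (SE 0.12, edgeR adjusted p = 0.109) and 0.22 (edgeR adjusted p = 0.683) and did not pass. Rian gave 28.2 and 28.1 CPM in control cells and 36.0 and 37.0 CPM in depleted cells, so that its groups did not overlap.

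Kcnq1ot1, the paternally expressed antisense RNA that silences its domain on chromosome 7, rose from 502 and 589 CPM to 670 and 702 CPM (log2 fold change 0.33, SE 0.06, edgeR adjusted p = 0.000571). Without depletion replicate 2 its value was 0.30 and no longer passed (edgeR adjusted p = 0.0902). None of the listed protein-coding genes of that domain passed, among them the growth regulators Cdkn1c at 0.19 and Phlda2 at -0.07. Tssc4, at -0.44 (edgeR adjusted p = 0.0675), had 38.5 and 33.3 CPM before and 27.9 and 24.9 CPM after depletion. Gnas, which encodes the stimulatory G protein subunit and has several overlapping promoters that the counts do not separate, rose from 54.7 and 59.0 CPM to 74.8 and 71.5 CPM. Its log2 fold change was 0.36 (SE 0.09, edgeR adjusted p = 0.0319), and it no longer passed under 6 of the alternatives.

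The imprinted gene with the largest fold change was Magel2, of the Prader-Willi region, with 5 and 5 counts in control cells and 26 and 15 in depleted cells. Its mean level was 1.43 CPM in the controls and 3.52 CPM after depletion (log2 fold change 1.29, SE 0.47, edgeR adjusted p = 0.149), and did not pass. Among imprinted genes that did not pass, Peg10 was at 0.21, Mest at 0.21, Plagl1 at 0.22, Ppp1r9a at 0.18, Airn at 0.20 and Snrpn at 0.15, each with both depletion libraries above both controls, while Peg3 was at -0.11 and Igf2r at -0.08. Reads were not assigned to parental alleles, so the counts do not show whether a silent allele was transcribed. Of 14 germline genes known to be silenced by promoter methylation, 5 were tested and none passed (median 0.01), the furthest from 0 being the testis tubulin Tuba3a at 0.42 (SE 0.44, edgeR adjusted p = 0.713).

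**Figure D5:**
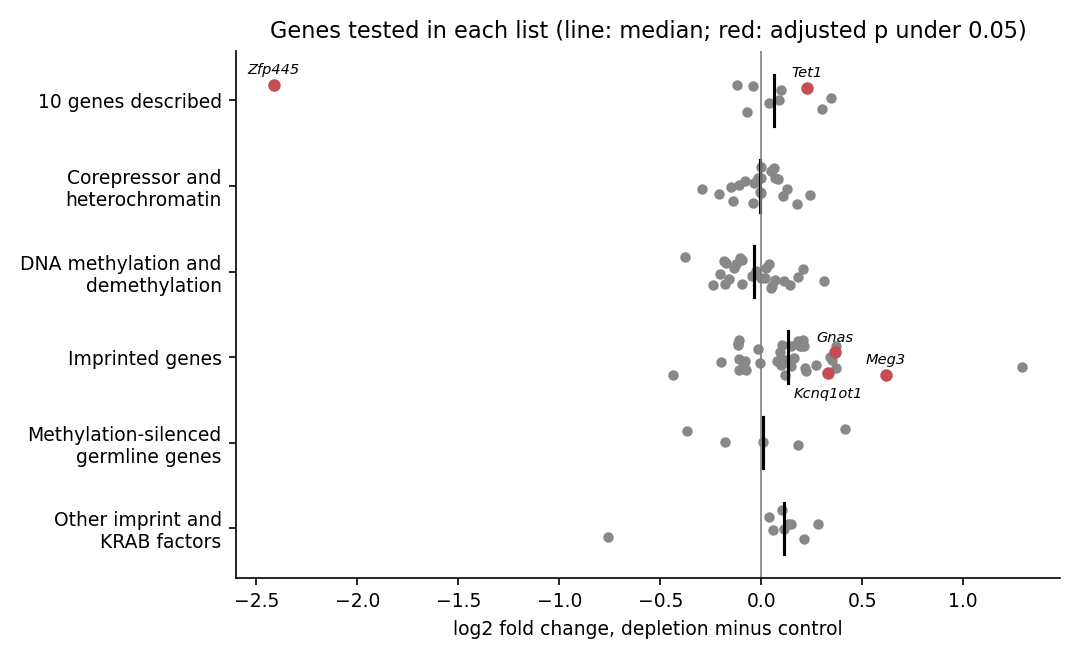
Log2 fold changes of the tested genes in each pathway list and of the 10 members, 1 point a gene. The members spread from -2.41 (Zfp445) to 0.34, the 38 imprinted genes centre on 0.13 with Meg3, Kcnq1ot1 and Gnas the 3 that passed the adjusted p, and none of the genes in the other 4 lists passed. Red marks genes past the adjusted p, Zfp445 and Tet1 among the members included.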

How the data were processed

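PRO-seq was performed on 2 control and 2 depletion libraries. The authors removed adapters (cutadapt 1.18 in the submitters' processing notes), mapped reads to mm10 with Bowtie 1.2.2, collapsed them by molecular identifier and deposited whole-number counts per gene, over genes whose starts they had corrected with CAGE data. The mean normalized signal that the authors deposited with their DESeq2 comparison was used to recover its size factors by regression (0.699, 0.740, 1.32 and 1.24). That table also holds their log2 fold changes, errors, p-values and classes, which were not used. Drosophila spike-in reads were added by the authors and were not used here. The paper states that scaling factors from these reads were supplied to DESeq2, so the recovered factors may carry that scaling. By its account replicates of a condition share the same factor, while the recovered factors differ within a condition. The origin of the recovered factors was not tested.

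Genes were filtered with filterByExpr (minimum count 10, minimum total 15), which kept 11853 of 12486, scaled by TMM and fitted with condition as the lone term in edgeR 4.0.16 under R 4.3.3 (glmQLFit and glmQLFTest, two-sided, Benjamini-Hochberg over all tested genes). Calls required 2-fold or more in either direction and an adjusted p under 0.05. The script was tested on simulated data. Replicates differed by more than counting noise (chi-square per degree of freedom 1.85 in the controls and 1.49 after depletion). Intervals are those of the fit, and precision is limited by variation between 2 libraries a group as well as by their 3298864 to 6045216 reads.

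The members, gene lists and tests were chosen with earlier results of these data known. Named genes are the members, Zfp574, list genes past the adjusted p or furthest from 0 in their list, the 5 nearest in pattern to Zfp445 and the tested genes within 250 kb of it. Cd81, Tssc4, Hells, Kdm2b, Mat2a, Ogt, Rian, Mirg and the imprinted genes given beside them were named after their values were seen. Summed levels of the other marker lists were 12.6 to 15.3 CPM for endoderm, 6.91 to 9.61 CPM for mesoderm and 31.3 to 38.6 CPM for trophoblast over the 4 libraries. Positions and lengths are from GENCODE M21, which matched 12474 genes. Length is that of the longest transcript tagged as a principal isoform, or else the longest. The intervals the authors counted over were not used. Promoters are from RefSeq (GRCm38.p6), and all 10 members matched. The promoter set held none of chromosome 18 and covered 9295 of the 11853 tested genes, so shares of promoters leave out the rest. The older symbol Fam208a, listed beside Tasor, was left out of the counts of genes. Alternatives were DESeq2 1.42.0, limma-voom (limma 3.58.1), other scalings and filters, a replicate block and leaving out single libraries.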

Additional observations from a re-analysis of the deposited data

How the results depend on the processing

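Zfp445 kept its direction under every alternative in which it was tested. Its log2 fold changes were -2.52 to -2.41 over other scalings, tests and filters and -2.64 to -2.23 when single libraries were left out. All are refits of the 4 libraries whose values chose Zfp445, so they describe the processing and lend its fall no further support. A filter on a mean count of at least 100 removed Zfp445 by construction, so that 0 members were called lower. Without the fold threshold, 3 pathway genes were called instead of 0. With the recovered size factors Zfp57 was at -0.0066, Dnmt1 at -0.064 and Dnmt3b at -0.014, each reversed in sign, and the median of all genes moved to -0.105. Leaving out single libraries gave -0.048 to 0.125 for Dnmt1, -0.157 to 0.071 for Setdb1, -1.19 to 0.158 for Zkscan7 and -0.290 to 0.116 for Tcaim, ranges that cross 0. The cause was not tested. Replicate deviations of the same number correlated at 0.0337 between conditions. Deviations between 2 libraries also hold counting noise, so this value cannot show whether the numbers pair the samples. With the replicate number as a block Zfp445 was at -2.42, and 3 pathway genes were lower and 7 higher at any fold. Without the block 3 were higher and none lower. At any fold, 7 pathway genes were lower and 2 higher with the recovered factors. The share of all genes that passed under each alternative is not given here. Counts under the alternatives therefore cannot be set against the share of all genes. Of 265 recomputed fold changes of named genes, 239 kept direction and side of the threshold, 11 no longer passed, 6 newly passed and 9 changed sign. With 2 libraries a group and 19 to 27 reads of Zfp445 in a depletion library, changes of low genes such as Gm35549, Magel2 and Zkscan7 are not resolved at this depth.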
